A study of Mus musculus with 9 samples.

Results

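Across 64617 barcodes kept from 9 single-cell libraries, a rule chose 495 as macrophages with no captured transcript of 4 microglial genes. These genes were P2ry12, Tmem119, Siglech and Sall1. Of the 495 cells, 482 came from EPZFTA-RELA tumors, with 263 and 179 from tumor replicates 2 and 4 alone. Tumors also held 10067 of the 12215 kept barcodes with 3 or more phagocyte genes. To be chosen, a barcode needed at least 1 unique molecular identifier (UMI, 1 captured transcript molecule) in 3 or more of 7 phagocyte genes (C1qa, C1qb, C1qc, Csf1r, Fcer1g, Tyrobp, Ctss) and in 3 or more of 7 macrophage genes (Ms4a7, Pf4, Lyz2, Mrc1, Clec4n, Runx3, Spp1). It also had 0 UMIs of the 4 microglial genes and fewer than 10 UMIs in total of the MHC class II genes Cd74, H2-Aa, H2-Ab1 and H2-Eb1. These cells are called the chosen macrophages here, a name that follows the rule. Of those in tumor replicates 2 and 4, 63.9% and 81.0% had UMIs in 2 or more of 5 other microglial genes. All 22 genes of the rule are described without a test, since the cells were selected on their values.

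The libraries were 5' droplet-based RNA-seq of 5 tumors from NestinCreERT2;Fus1 mice and of brain from 4 NestinCreERT2;TdT control mice, all aged 6 to 8 weeks. EPZFTA-RELA is an ependymoma, a childhood brain tumor, driven by the ZFTA-RELA fusion gene. In the tumor-bearing mice a conditional allele of that fusion was recombined by CreERT2 under the Nestin promoter, which is active in neural stem and progenitor cells. Both groups carried NestinCreERT2, and the labels give the TdT allele for the control mice and Fus1 for the tumor-bearing mice. Tissue was dissociated, passed through Percoll and sorted with DAPI and an antibody against the erythroid antigen Ter119. The labels do not say how many animals went into a library, so each library was treated as 1 mouse and the p-values measure the spread between libraries.

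Brain macrophages fall into several lineages. Microglia live in the parenchyma, derive from yolk sac progenitors and depend on signaling through the CSF1 receptor, and they carry the purinergic receptor P2ry12, Tmem119, the lectin Siglech and the transcription factor Sall1. Border-associated macrophages of the meninges, vessels and choroid plexus carry Mrc1 (the mannose receptor CD206), Pf4 (a platelet factor chemokine), Lyve1 and Cd163, and macrophages that enter from blood monocytes lose Ly6c2 and Ccr2 as they mature. Ms4a7 is a membrane protein of non-microglial brain macrophages, Lyz2 encodes lysozyme and Spp1 encodes osteopontin, a secreted phosphoprotein that is not restricted to myeloid cells.

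The control libraries held 101060608 to 178086164 UMIs and the tumor libraries 14967680 to 69411387. Of the kept barcodes, 29135 came from control brain and 35482 from tumors, and 2148 and 10067 of these carried 3 or more phagocyte genes. No barcode sequence was shared between chosen macrophages of different libraries among the 8 libraries with complete barcode lists, and 3 chosen barcodes had the sequence of another kind of kept barcode in a second library. The chosen macrophages had fewer UMIs than microglia of the same tumor, with medians of 1774 against 2780 in tumor replicate 2, 1297.5 against 1810 in replicate 3 and 3663 against 4325 in replicate 4. Mitochondrial shares were higher, with medians of 11.0%, 5.67% and 3.0% against 8.70%, 4.65% and 2.38% in those tumors. A Scrublet score marked 17 of 263, 2 of 24 and 37 of 179 of the chosen macrophages of replicates 2, 3 and 4 as possible doublets. Of all kept barcodes it marked 283 of 5952, 359 of 6698 and 799 of 9994 there, a number set in advance at 0.8% per 1000 barcodes. A mitochondrial limit of 10% in place of 15% would have left 105 of the 263 cells of replicate 2 and all 179 of replicate 4. Kept barcodes with at least 1000 UMIs were also thinned to 1000 before the rule, and shallower ones were left out. Of these barcodes, the tumors then held 0.358%, 4.10%, 0.877%, 2.00% and 0.0400% and the controls 0.0135% to 0.0778%. Without thinning, the tumor shares of the same barcodes were 0.239%, 4.41%, 0.678%, 1.79% and 0.10%. In tumor replicate 3, 2508 of 6698 kept barcodes had that depth.

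Chosen macrophages were spread unevenly over the tumors. Tumor replicates 1 to 5 held 6, 263, 24, 179 and 10 of them, and control replicates 1 to 4 held 3, 3, 4 and 3. Replicate 2 alone gave 53.1% of all chosen macrophages and replicate 4 a further 36.2%. As shares of kept barcodes, the tumors had 0.211%, 4.42%, 0.358%, 1.79% and 0.10%, and the controls 0.0369%, 0.0404%, 0.0622% and 0.0420%. All 5 tumors lay above all 4 controls, although the exact 95% binomial intervals of tumor replicate 5 (0.0480% to 0.184%) and control replicate 3 (0.0170% to 0.159%) overlapped. The means were 1.38% ± 1.83 (SD, n = 5) and 0.0454% ± 0.0114 (SD, n = 4), a difference of 1.33 percentage points (p = 0.0159 by exact permutation of the mice, two-sided, where 5 against 4 mice can give no smaller p; adjusted p = 0.0317 over the 2 shares). Earlier results of these data had already shown few such cells in controls. The p-values for the shares thus describe the spread over mice and are no independent evidence of a difference. The rule itself also entered the tumor counts. Spp1 was needed to pass in 131 of 263 and 83 of 179 chosen macrophages of tumor replicates 2 and 4 and in no control cell. With Spp1 not counted the difference was 0.703 percentage points (exact permutation p = 0.0317). The difference was 0.570 percentage points without tumor replicate 2 (exact permutation p = 0.0286). With 4 macrophage genes required it was 0.535 percentage points and missed the threshold (exact permutation p = 0.0794).

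Among phagocytes alone, the tumors had 1.14%, 11.5%, 1.11%, 5.19% and 0.605% and the controls 0.820%, 0.416%, 0.816% and 0.525%. A phagocyte here needs only 1 UMI in each of 3 genes, so other cells with stray UMIs can be among them. Thinned to 1000 UMIs, the controls held 250, 248, 193 and 183 phagocytes, against 366, 721, 490 and 571 before. The tumors then held 415, 1869, 810, 2050 and 1235, against 528, 2283, 2157, 3446 and 1653, with shallower barcodes left out. The cell types behind this loss were not tested. Tumor replicate 5 fell within the range of the controls, and replicates 1 and 3 were closer to the highest control than to replicate 4. The means were 3.91% ± 4.64 (SD, n = 5) and 0.644% ± 0.205 (SD, n = 4), a difference of 3.27 percentage points (exact permutation test, p = 0.0476, adjusted p = 0.0476). Leaving out tumor replicate 2 brought the difference to 1.37 percentage points (exact permutation p = 0.0857), and the p stayed at or above 0.0714 when any of the other mice but tumor replicate 5 was left out (p = 0.0286 without it). Each control value rests on 3 or 4 cells.

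**Figure D1:**
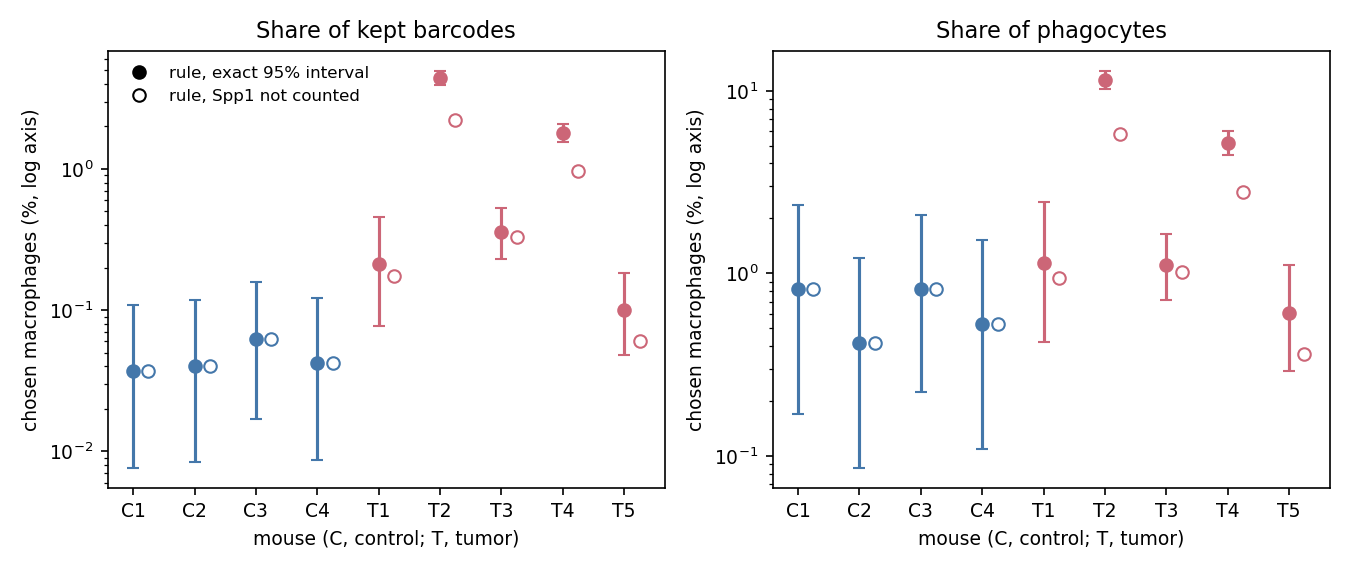
Chosen macrophages as a percentage of kept barcodes (left) and of phagocytes (right) in each mouse, on log axes, with exact 95% binomial intervals for counting error only; open circles leave Spp1 out of the 7 macrophage genes. Tumor replicates 2 (4.42% of kept barcodes) and 4 (1.79%) stand above the other 3 tumors, and tumor replicate 5 lies among the controls in the right panel.

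The choice leaned on Spp1 in tumor replicates 2 and 4. Of non-phagocytes, kept barcodes with no UMI of the 7 phagocyte genes, 74.9% in tumor replicate 2 and 76.8% in replicate 4 had a Spp1 UMI, against 4.02% to 5.85% in the other 3 tumors and 5.43% to 12.7% in controls. In endothelial cells, which had 3 or more of 7 endothelial genes and were not phagocytes, the share was 56.0% and 51.3% in replicates 2 and 4. At the level of summed UMIs, Spp1 stood at 2231 and 2013 CPM (UMIs of a gene per 1000000 UMIs of all genes) in the chosen macrophages of replicates 2 and 4 and at 2403 and 1671 CPM in the non-phagocytes. The share of Spp1 UMIs in these cells that came from free RNA was not tested. Spp1 was needed to reach 3 macrophage genes in 131 of 263 chosen macrophages of replicate 2 (49.8%), 83 of 179 of replicate 4 (46.4%), 4 of 10, 2 of 24 and 1 of 6 of replicates 5, 3 and 1, and none of the 13 control cells. With Spp1 not counted, an alternative chosen after seeing the data, 274 cells were left, and tumors held 0.176%, 2.22%, 0.328%, 0.961% and 0.0600% of kept barcodes. Then 4 of the 5 tumors lay above all controls (difference 0.703 percentage points, exact permutation p = 0.0317), and the difference as a share of phagocytes was 1.54 percentage points (exact permutation p = 0.143).

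Lyz2 and Ms4a7, 2 of the 7 genes of which every chosen cell carried at least 3, were high in the chosen macrophages by the rule itself. Lyz2 was at 2578, 1945, 2258 and 1266 CPM in the chosen macrophages of the 4 controls and at 5657, 9842, 11686, 7188 and 2452 CPM in those of the 5 tumors, with non-phagocytes at 43.9, 23.8 and 30.1 CPM in replicates 2, 3 and 4, although 14.7% and 13.7% of the non-phagocytes of replicates 2 and 4 had a Lyz2 UMI. Every chosen macrophage of a tumor had a Lyz2 UMI, and the groups overlapped, with tumor replicate 5 among the controls. Ms4a7 stood at 344, 299, 718 and 691 CPM in controls and 1239.8, 548, 405, 446 and 143 CPM in tumors, and was found in 70.0%, 45.8% and 74.9% of the cells of tumor replicates 2, 3 and 4, against 1.12%, 0.263% and 2.08% of endothelial cells. Its levels also overlapped between the groups.

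Pf4 and Mrc1, both border macrophage genes, divided the tumors differently. Pf4 was at 1375, 524, 1745 and 345 CPM in the controls and at 1317, 332, 1967, 268 and 257 CPM in the tumors. Mrc1 was at 1719, 1197, 924 and 1381 CPM and at 1549.8, 185, 955, 144 and 456 CPM. In both genes tumor replicates 2 and 4 were below tumor replicates 1 and 3, and replicate 3 held the highest Pf4 level of the 5 tumors. In replicates 2 and 4, 131 of 263 and 83 of 179 cells needed Spp1 to pass, so they carried fewer of the other macrophage genes. The part of this in the Pf4 and Mrc1 levels was not tested. Clec4n, the lectin Dectin-2, was at 77.5, 82.3, 174, 22.6 and 28.5 CPM in the tumors, and Runx3, a transcription factor, was at 0, 95.1, 57.9, 23.8 and 57 CPM, with 0 Runx3 UMIs in all 13 control cells and in tumor replicate 1. The shares of cells with a Clec4n and a Runx3 UMI were 13.7% and 20.9% in replicate 2, 29.2% and 8.33% in replicate 3 and 6.15% and 10.1% in replicate 4. Clec4n was in 1 of 3, 1 of 3, 2 of 4 and 1 of 3 cells of the controls.

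Many cells lay just outside the thresholds. Phagocytes with no microglial UMI and few MHC class II UMIs numbered 335 with 2 macrophage genes against 156 with 3 in tumor replicate 2, and 363 against 98 in replicate 4. Moving along the microglial genes, phagocytes with 3 or more macrophage genes numbered 263 with 0 microglial UMIs, 133 with 1 and 80 with 2 in replicate 2, and 179, 204 and 160 in replicate 4. Of MHC class II, 232 of the 263 chosen cells of replicate 2 and 106 of the 179 of replicate 4 had 0 UMIs. In replicate 4, 6 cells lay at 7 to 9 such UMIs, 7 at 10 to 12 and 32 above that, so the limit left out 39 cells there. It left out 2, 2, 4 and 3 cells in the controls, where 3, 3, 4 and 3 were chosen, and with no such limit the difference in the share of phagocytes was 3.02 percentage points (exact permutation p = 0.429). The cell numbers describe the rule and carry no test.

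**Figure D2:**
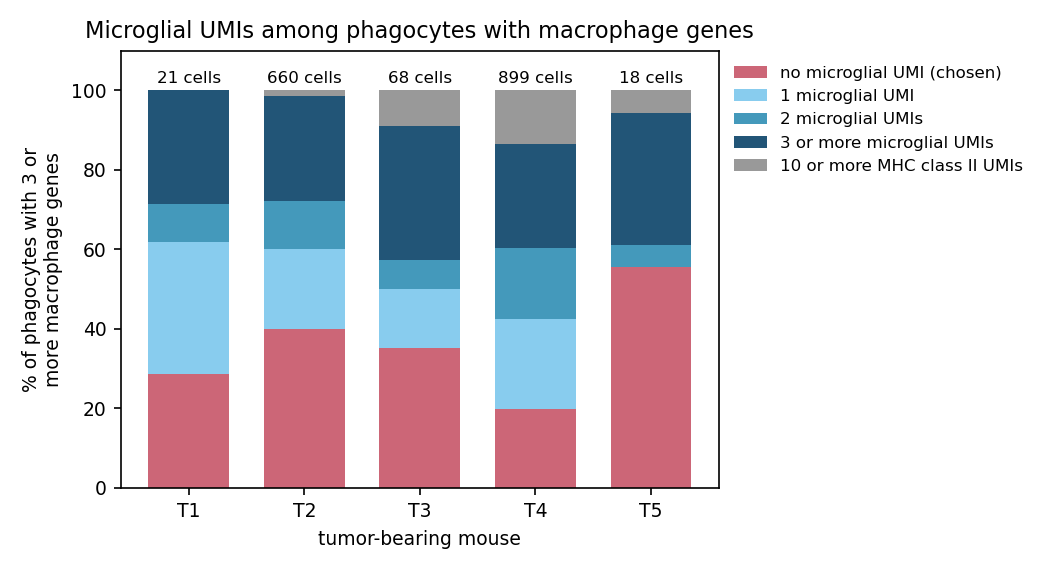
Phagocytes with 3 or more macrophage genes in each tumor, divided by their number of microglial UMIs, as a percentage of the cells written above each bar; the red part at the base is the chosen macrophages. In tumor replicates 2 and 4 the cells with 1 (133 and 204) or 2 (80 and 160) microglial UMIs follow on those with 0 (263 and 179) without a gap.

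The absence of microglial transcripts was relative. Of all phagocytes with 3 or more macrophage genes, 71.4%, 59.5%, 60.3%, 75.8% and 44.4% in tumor replicates 1 to 5 carried a microglial UMI. Within the chosen macrophages, 168 of 263 cells of replicate 2 (63.9%), 14 of 24 of replicate 3 (58.3%) and 145 of 179 of replicate 4 (81.0%) had UMIs in 2 or more of 5 microglial genes that the rule did not use, among them Cx3cr1, Gpr34, Fcrls and Olfml3. The share in endothelial cells, whose median depth was 2540, 1094.5 and 3876 UMIs, was 2.99%, 2.11% and 2.50%, and in microglia of the same tumors it was 93.1%, 94.2% and 89.3%. Cx3cr1, the fractalkine receptor of microglia, had a UMI in 23.2%, 33.3% and 50.3% of chosen macrophages, 74.8%, 68.5% and 72.0% of microglia and 2.61%, 2.63% and 2.50% of endothelial cells. At 1000 UMIs per cell these shares of cells with a Cx3cr1 UMI were 12.6%, 29.4% and 22.3% for the chosen macrophages and 50.0%, 64.6% and 35.4% for microglia, leaving out 1, 7 and 0 chosen cells and 1, 127 and 0 microglia that were shallower. These cells thus lacked UMIs of the 4 genes of the rule and not of microglial genes in general.

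Border macrophage genes outside the rule also differed in level between the chosen macrophages of the tumors. UMIs in 2 or more of 12 border macrophage genes outside the rule were found in all 13 chosen macrophages of the controls, in 19 of 24 of tumor replicate 3 (79.2%) and in 4 of 6 of replicate 1, but in 61 of 263 of replicate 2 (23.2%), 79 of 179 of replicate 4 (44.1%) and 4 of 10 of replicate 5. The same share was 37.5%, 45.1% and 37.9% in microglia and 19.8%, 8.42% and 40.8% in endothelial cells of replicates 2, 3 and 4. In this measure, which was not matched for depth, the chosen macrophages of replicates 2 and 4 were close to endothelial cells and those of replicate 3 were not. Summed in those tumors, the 12 genes stood at 518, 4281 and 553 CPM in the chosen macrophages. They stood at 482, 1253 and 358 CPM in microglia and 315, 387 and 431 CPM in endothelial cells. The scavenger receptor Cd163 was at 697, 12.8, 246, 2.51 and 0 CPM in tumors and 399 CPM in the 13 control cells summed. The hyaluronan receptor Lyve1 was at 232, 18.5, 362, 0 and 57 CPM against 186 CPM. The coagulation factor subunit F13a1 was at 697, 25.6, 824, 16.3 and 57 CPM against 452 CPM. For these genes the cells of tumor replicates 1 and 3 and of controls were high, and those of replicates 2 and 4, which hold most of the chosen macrophages, were low. With 1 library per tumor these differences have no replicates. The 6 cells of replicate 1 held 12905 UMIs, so that 1 UMI is 77.5 CPM there. A count of 0 allows up to 232 CPM in that tumor, as much as its Lyve1 level. Spp1 was needed to reach 3 macrophage genes in 131 of 263 and 83 of 179 cells of replicates 2 and 4. In replicates 3 and 1 it was needed in 2 of 24 and 1 of 6. These levels were not taken with Spp1 left out, and the part of the choice by Spp1 in them was not tested. In replicate 3, Cd163 UMIs were in 4 of 24 cells, 1 of which held 64.7% of them, and F13a1 UMIs were in 14 of 24 cells, 1 of which held 36.8%.

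**Figure D3:**
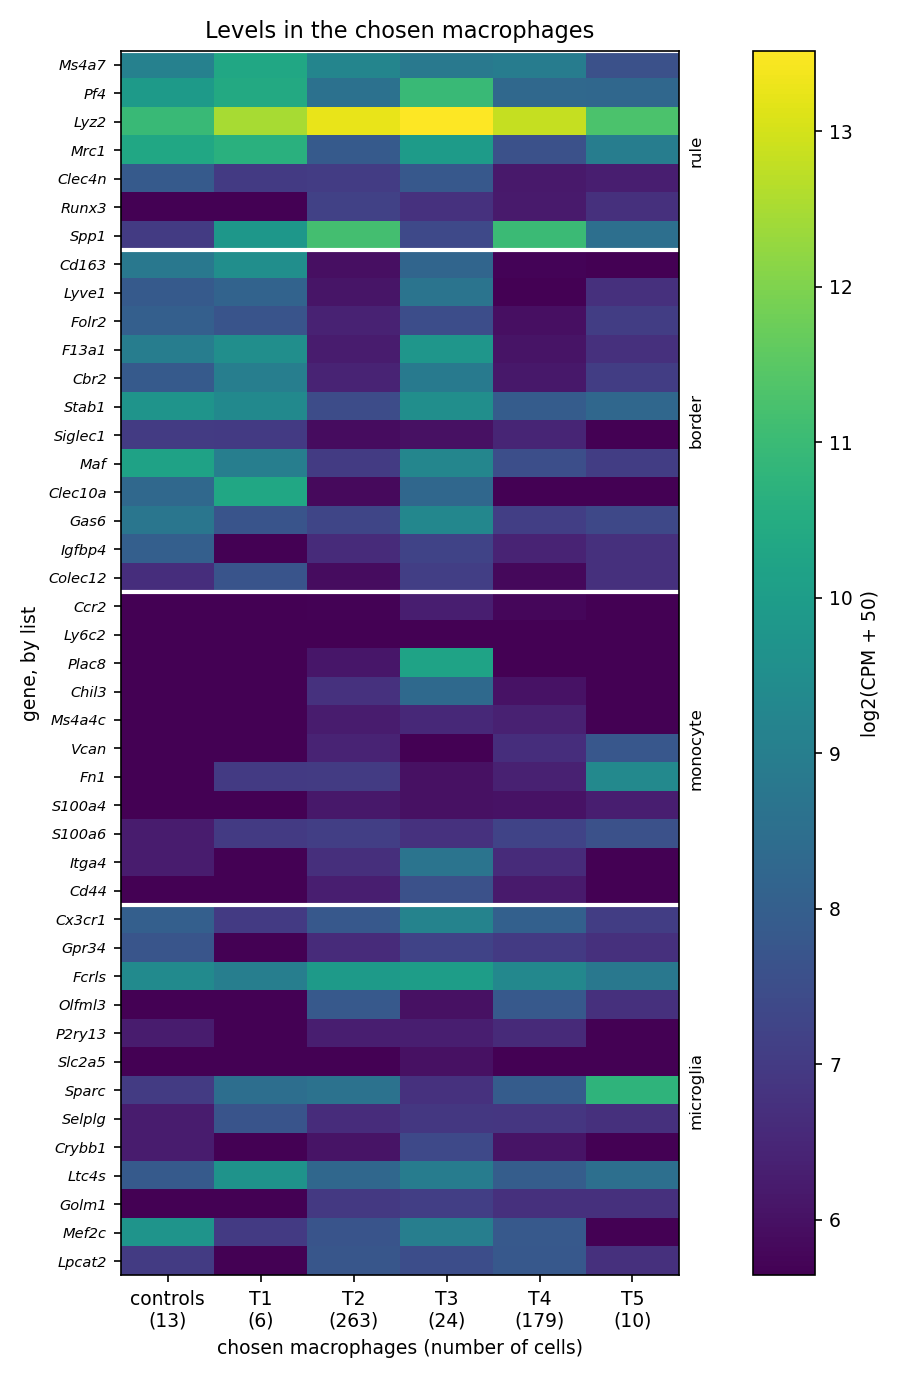
Levels, as log2(CPM + 50), of the macrophage genes of the rule and of border macrophage, monocyte and microglial genes outside it in the chosen macrophages of each tumor and of the 4 controls summed, with the number of cells in parentheses. Cd163, Lyve1 and F13a1 are bright in the controls, T1 and T3 and dark in T2 and T4, with Cd163 at 399 CPM in the controls and 12.8 and 2.51 CPM in T2 and T4. In T2 and T4, 131 and 83 of the cells shown needed Spp1 to pass the rule.

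To set the chosen macrophages against microglia of the same tumor, UMIs were summed per mouse and class in the 3 tumors with at least 20 cells of each (tumor replicates 2, 3 and 4, with 263, 24 and 179 chosen macrophages and 421, 483 and 646 microglia). Microglia were phagocytes with 2 or more of the 4 microglial genes, fewer than 3 macrophage genes and fewer than 10 MHC class II UMIs. Of 9685 genes tested outside the rule, 216 were called by the quasi-likelihood test of edgeR with the mouse as a block (2.23%), 79 of them higher in the chosen macrophages (0.816%) and 137 lower (1.41%). Both classes were gated on microglial and macrophage genes, so genes that vary with those were chosen along with them, and the calls describe the classes rather than give independent evidence of a lineage. Below, 3 values in a row are for tumor replicates 2, 3 and 4, folds are on the log2 scale, and CPM values are of summed UMIs. The ± after a fold is a standard error taken as the size of the fold over the square root of the F statistic of the test. Folds could move by more than this with 1 tumor left out, as for F13a1 (7.2 ± 0.82, from 3.89 to 9.56). All folds here are of the chosen macrophages over the other class. The median fold over all genes tested was -0.04 on the log2 scale.

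The genes with the smallest p among those that rose were the following. Lgals1, the galectin-1 gene, was at 410.2, 318 and 258 CPM against 57.7, 26.1 and 38.1 in microglia (2.96 ± 0.24, adjusted p = 1.27e-05). Pla2g7, which encodes the platelet-activating factor hydrolase, was at 365, 448 and 94 against 19.7, 18.2 and 13 CPM (3.81 ± 0.31, adjusted p = 1.27e-05). The growth factor Igf1 was at 82.3, 116 and 149 against 5.08, 13.1 and 26.3 CPM (2.94 ± 0.31, adjusted p = 8.83e-05), and its fold was 3.55 without tumor replicate 4. All 3 were higher than microglia in each of the 3 tumors, although non-phagocytes of replicate 2 held 145 CPM of Lgals1. Clec12a, an inhibitory lectin of myeloid cells, was at 17, 101 and 81.5 against 0.634, 0 and 3.03 CPM (5.20 ± 0.56, adjusted p = 8.83e-05), and the lectin-like receptor Klra2 at 58.2, 86.8 and 62.7 against 1.27, 0 and 5.15 CPM (4.47 ± 0.52, adjusted p = 0.000155). The endocytic adaptor Dab2 (2.51 ± 0.29, adjusted p = 0.000155), the interferon-inducible Ifi203 (4.77 ± 0.58, adjusted p = 0.000212) and Ms4a6c (2.33 ± 0.29, adjusted p = 0.000223) rose too. Klra2, Clec12a and Ms4a6c were at or near 0 in non-phagocytes, with at most 4.84 CPM. Leaving out replicate 4 gave folds of 6.82 for Clec12a, 6.49 for Klra2 and 7.74 for Ifi203, which was 3.97 without replicate 3.

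Chil3 and F13a1 also passed, Chil3 on few cells. The chitinase-like Chil3 was at 58.2, 275 and 15 CPM against 0, 0 and 1.21 in microglia (6.68 ± 0.75, adjusted p = 0.000115). Its 41, 19 and 12 UMIs came from 1, 2 and 2 cells. F13a1 was at 25.6, 824 and 16.3 against 3.17, 0 and 0.303 CPM (7.2 ± 0.82, adjusted p = 0.000122), from 8 cells of 263, 14 of 24 and 11 of 179, and its fold was 3.89 without tumor replicate 3 and 9.56 without replicate 2. That of Chil3 was 5.09 without replicate 3 and 10.29 without replicate 4.

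Genes that fell included several of microglia. Crybb1, a crystallin gene expressed in microglia, was at 17, 116 and 16.3 CPM against 291, 1039 and 120.5 (-3.43 ± 0.30, adjusted p = 1.40e-05). Selplg, the P-selectin ligand, was at 49.7, 72.3 and 69 against 443, 795 and 310.2 CPM (-2.79 ± 0.28, adjusted p = 5.67e-05), and Sparc, a matrix glycoprotein, at 344, 57.9 and 194 against 1713, 1862 and 1278 CPM (-2.92 ± 0.34, adjusted p = 0.000155). Klk8, a serine protease, had 2 UMIs in the chosen macrophages of the 3 tumors and 431 in microglia, a level 51.0 times as high in microglia (95% counting interval 14.0 to 422). For the fructose transporter Slc2a5 the numbers were 1 and 458 UMIs, a ratio of 108 (19.4 to 4290). Cst7, a cystatin, and Lag3, a checkpoint receptor, fell by 2.67 ± 0.30 (adjusted p = 0.000115) and 2.85 ± 0.32 (adjusted p = 0.000115), and Nav3, a neuron navigator, by 3.54 ± 0.43 (adjusted p = 0.000204). Each of these genes was lower in the chosen macrophages than in microglia in all 3 tumors, with 12, 8 and 13 UMIs behind the levels of Crybb1. The fold of Lag3 was -3.53 without tumor replicate 4 and that of Sparc -3.55 without replicate 2.

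By list, microglial genes outside the rule fell together: 9 of 14 tested were lower and none higher, with a median of -1.85 against -0.04 for all genes. Cx3cr1 was at 173, 521 and 214 against 797, 2049.7 and 484 CPM (-1.80 ± 0.24, adjusted p = 0.000571) and Gpr34, a lysophospholipid receptor, at 48.3, 101 and 75.2 against 208, 1136 and 209 CPM (-2.17 ± 0.32, adjusted p = 0.00107). Olfml3 (-2.38 ± 0.39, adjusted p = 0.00266) and Golm1 (-1.72 ± 0.25, adjusted p = 0.000912) were lower as well. Fcrls, an Fc receptor-like scavenger receptor of microglia, differed less and was not called, at 927, 998 and 586 against 1229, 2222 and 667 CPM (-0.59 ± 0.24, adjusted p = 0.361), and P2ry13 (-1.30 ± 0.33, adjusted p = 0.0518), Ltc4s (-0.88 ± 0.22, adjusted p = 0.0518), Lpcat2 (-1.08 ± 0.27, adjusted p = 0.0518) and Mef2c (-0.78 ± 0.23, adjusted p = 0.12) did not pass.

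Of 12 border macrophage genes 8 could be tested, and 3 were higher and none lower (median 0.70). F13a1 is given above. Cbr2, a carbonyl reductase, was at 36.9, 419 and 21.3 against 4.44, 1.71 and 2.12 CPM (4.79 ± 0.63, adjusted p = 0.00045; 5.43, 3.20 and 5.38 without replicate 2, 3 and 4 in turn), and the sialic acid receptor Siglec1 at 9.94, 14.5 and 38.9 against 1.27, 1.14 and 8.78 CPM (2.31 ± 0.48, adjusted p = 0.0145), not called without replicate 2. Stab1, Folr2, Maf, Gas6 and Igfbp4 were not called, with Folr2, the folate receptor, at 34.1, 130.2 and 12.5 against 19, 18.2 and 36.9 CPM and the transcription factor Maf at 79.5, 564 and 135 against 135, 698 and 93.5 CPM.

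The 12 monocyte genes summed to 413, 2068 and 325 CPM in the chosen macrophages and 159, 47.7 and 231 CPM in microglia. Within this list, Ly6c2 and Ccr2 had few or no UMIs. Ly6c2 had 0 UMIs in all 5 tumors, and the chemokine receptor Ccr2 had 1, 2 and 4 UMIs in replicates 2, 3 and 4 and 0 elsewhere. A count of 0 allows up to 232, 4.26, 43.4, 3.76 and 85.5 CPM in tumor replicates 1 to 5, for counting error only. Of 9 list genes tested, 3 were higher and none lower (median 1.17). These were Chil3, Plac8 and the integrin subunit Itga4 (55.4, 362 and 48.9 against 9.52, 5.68 and 14.2 CPM, 3.03 ± 0.51, adjusted p = 0.00321). Plac8 was at 19.9, 1128 and 0 against 0.634, 8.53 and 5.75 CPM (4.56 ± 0.97, adjusted p = 0.0174), on 14 UMIs in 1 cell of replicate 2, 78 UMIs in 2 cells of replicate 3 and 0 in replicate 4. In replicate 3, 1 cell also held 18 of the 19 Chil3 UMIs and 1 cell 15 of the 25 Itga4 UMIs. The fold of Plac8 was 3.86 without replicate 2 and 6.60 without replicate 4, and without replicate 3 the gene had too few counts to be tested. For Itga4 the fold was 2.10 without replicate 3 and 4.13 without replicate 4.

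Lipid handling and disease-associated genes moved in both directions, with 4 of 15 tested higher, 5 lower and a median of 0.18. Apoe, the lipid carrier apolipoprotein E, was at 60209, 52637, 46006, 75674 and 24433 CPM in tumors 1 to 5 and 23049 CPM in the 13 control cells, against 11986, 6925 and 36992 CPM in microglia of tumors 2 to 4 (1.93 ± 0.25, adjusted p = 0.000339). The galectin Lgals3 was at 148, 174 and 272 against 38.1, 0.568 and 34.2 CPM (2.95 ± 0.44, adjusted p = 0.00121), with a fold of 3.96 without replicate 2. The fatty acid binding protein Fabp5 (1.35 ± 0.31, adjusted p = 0.031) and the lipid droplet protein Plin2 (1.10 ± 0.26, adjusted p = 0.0384) rose, but non-phagocytes held as much Fabp5 (233, 240 and 351 CPM), and it was lower than microglia in replicate 3 (57.9 against 75.6 CPM). Trem2, a lipid receptor of microglia, was lower at 731, 347 and 979 against 1329, 1827 and 1731 CPM (-1.27 ± 0.29, adjusted p = 0.0263), and so were Cd9 (-1.64 ± 0.22, adjusted p = 0.000571), the lipase Lpl (-1.91 ± 0.32, adjusted p = 0.0036), Ch25h (-1.90 ± 0.42, adjusted p = 0.0211) and Cst7. Gpnmb was not called, at 19.9, 0 and 124 against 23.5, 5.12 and 55.7 CPM. Fabp5, Plin2 and Ch25h were not called without tumor replicate 2, nor was Fabp5 without replicate 4. The fold of Ch25h was -1.01 without replicate 2 and -2.93 without replicate 4, and Plin2 was at -0.075 and not called with 8 microglial genes barred.

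Of the chemokine genes, 2 of 15 tested were higher, 3 lower and the median was -0.14. Ccl4 (MIP-1b) was at 78.1, 159 and 273 against 804, 2292 and 1492 CPM (-3.12 ± 0.28, adjusted p = 1.40e-05) and Ccl3 (MIP-1a) at 45.4, 260.3 and 70.2 against 433, 1059.5 and 357 CPM (-2.60 ± 0.26, adjusted p = 5.67e-05), so both were below microglia in all 3 tumors. Cxcl13, a B cell attractant, was at 1.42, 0 and 197 against 67.9, 1.71 and 2108 CPM (-3.71 ± 0.37, adjusted p = 4.98e-05), and its microglial level was carried by tumor replicate 4. Cxcl2, a neutrophil attractant, was higher at 273, 101 and 295 against 47.6, 42.1 and 113 CPM (1.79 ± 0.29, adjusted p = 0.00263), in 23 of 263 cells of replicate 2 and 40 of 179 of replicate 4, and was not called without replicate 2. Ccl24 was higher too (38.3, 159 and 104 against 10.2, 61.4 and 12.1 CPM, 2.24 ± 0.33, adjusted p = 0.00121), but 1 cell of replicate 4 held 69 of its 83 UMIs there, and the call was lost without that tumor (1.60). Ccl12, at 288, 1403 and 431 against 961, 172 and 816 CPM, and Ccl2, at 88, 275 and 109 against 116, 89.8 and 155 CPM, were not called.

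No inflammatory cytokine gene was called higher, and 2 of 9 tested were lower (median -0.56). Tnf was at 12.8, 0 and 21.3 against 76.8, 7.39 and 77.5 CPM (-2.15 ± 0.33, adjusted p = 0.0015) and Il1a at 24.1, 0 and 38.9 against 92, 92.1 and 91.7 CPM (-1.66 ± 0.31, adjusted p = 0.00795), both not called without tumor replicate 2. Il1b, at 72.4, 434 and 390 against 39.3, 153 and 293 CPM, was not called (0.82 ± 0.25, adjusted p = 0.134). Among 12 tested genes of immune restraint, 3 were lower and none higher (median -0.43). The inhibitory receptor ligand Vsir (VISTA) was at 95.1, 275 and 97.8 against 286, 688 and 230 CPM (-1.41 ± 0.23, adjusted p = 0.00259), and Sirpa (-1.11 ± 0.24, adjusted p = 0.0178) and the collagen receptor Lair1 (-1.03 ± 0.25, adjusted p = 0.0363) were lower but lost the call without replicate 2, Lair1 also without replicate 4.

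The 15 immune restraint genes summed to 757, 2112 and 934 CPM in the chosen macrophages and to 1455, 2319 and 1294 CPM in microglia of replicates 2, 3 and 4, and their members differed widely in level. Arg1, the arginase that depletes arginine, had 28 UMIs in 8 of 179 chosen macrophages of replicate 4 and 0 in the other 4 tumors. Il10 had 5 UMIs, all in replicate 4, and the PD-L1 gene Cd274 had 3, 1, 12 and 2 UMIs in replicates 2, 3, 4 and 5. A count of 0 in replicate 2 allows up to 4.26 CPM, and in replicate 3 up to 43.4 CPM, for counting error only. Tgfb1 was at 86.6, 231 and 99.1 against 172, 255 and 132 CPM and was not called (-0.58 ± 0.23, adjusted p = 0.349).

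The 16 growth factor and matrix genes summed to 2037, 1403 and 1794 CPM in the chosen macrophages, below the 2304, 1891 and 2359 CPM of microglia. Of 11 tested, 4 were called higher and none lower (median 0.41). Beside Igf1, these were the matrix protein Tgfbi (199, 145 and 37.6 against 47.6, 20.5 and 17.6 CPM, 1.87 ± 0.29, adjusted p = 0.00182), the matrix protein Thbs1 (177, 0 and 28.8 against 10.8, 4.55 and 9.99 CPM, 2.76 ± 0.48, adjusted p = 0.00431) and Ecm1 (2.29 ± 0.55, adjusted p = 0.0384). Of the 125 Thbs1 UMIs of replicate 2, 79 were in 1 cell. The fold of Thbs1 was 1.28 without replicate 2 and 3.47 without replicate 4, and that of Ecm1 2.89 without replicate 4. None of Tgfbi, Thbs1 and Ecm1 was called without replicate 2, whereas Igf1 was called with each of the 3 tumors left out. Vegfa was at 36.9, 14.5 and 66.5 against 41.9, 18.2 and 35.4 CPM (0.41 ± 0.30, adjusted p = 0.795) and was not called.

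Among scavenger, Fc and lectin receptors, 1 of 12 tested was higher and 2 lower (median -0.52): the scavenger receptor Msr1 was at 73.8, 101 and 27.6 against 17.8, 3.98 and 3.33 CPM (2.79 ± 0.40, adjusted p = 0.000983; 3.54 without replicate 2), whereas the efferocytosis receptor Mertk (-1.36 ± 0.25, adjusted p = 0.00625) and the integrin Itgam, CD11b (-1.34 ± 0.24, adjusted p = 0.00466), were lower. Of 10 lysosomal genes 4 were lower and none higher (median -0.64), namely the cathepsins Ctsd, Ctsl and Ctsz (-1.28 ± 0.27, adjusted p = 0.0171, -1.74 ± 0.24, adjusted p = 0.000575 and -1.02 ± 0.21, adjusted p = 0.0168) and the protease inhibitor Cst3, cystatin C, at 4036, 9227 and 6785 against 14604, 36963 and 14911 CPM (-1.70 ± 0.21, adjusted p = 0.000204). Of the calls in these lists, Mertk was lost without replicate 2, Itgam and Ctsz without replicate 4 and Ctsd without replicate 3. Iron and heme genes gave 1 of 9 higher, the biliverdin reductase Blvrb (231, 376 and 331 against 97.1, 119 and 127 CPM, 1.38 ± 0.22, adjusted p = 0.00208), and none lower (median 0.44). The ferritin chains Fth1 and Ftl1 were abundant but not called, with Ftl1 at 6999.6, 6045 and 6559 against 3904, 3979 and 3996 CPM (0.68 ± 0.19, adjusted p = 0.0904).

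The receptors of the colony-stimulating factors, which control the growth and maturation of myeloid cells, gave 1 lower and none higher of 4 axis genes tested (median -0.45). It was Csf3r, the G-CSF receptor, at 21.3, 86.8 and 33.9 against 59.6, 157 and 87.8 CPM (-1.34 ± 0.26, adjusted p = 0.0103), called only with replicates 2 and 4 both in the fit. Csf2ra, at 122, 159 and 120.4 against 92.6, 83 and 139.5 CPM, and Csf2rb, at 65.3, 174 and 16.3 against 83.8, 46 and 25.4 CPM, were not called, and the GM-CSF gene Csf2 had 0 UMIs in all chosen macrophages. Among complement genes the receptor C3ar1 was lower (-1.0 ± 0.24, adjusted p = 0.0429), not called without replicate 2 or without replicate 4, and none was higher (list median -0.15). None of 9 MHC class I genes was called (median -0.31), with B2m at 1685, 2820.2 and 1383 against 2360.2, 2351 and 2021 CPM. Of 13 interferon-stimulated genes only Bst2, tetherin, was called, higher at 975, 738 and 1603 against 332, 289 and 776 CPM (1.28 ± 0.22, adjusted p = 0.00435; list median 0.43). In the remaining lists, 1 of 10 hypoxia and glycolysis genes was lower (the hexokinase Hk2, -1.46 ± 0.25, adjusted p = 0.00417; median 0.06), 0 of 8 heat shock genes was called (median 0.02), 1 of 12 immediate early genes was lower (Egr1, -1.32 ± 0.28, adjusted p = 0.0162, not called without replicate 2; median -0.20), 1 of 12 cell cycle genes was lower (Ube2c, -1.41 ± 0.30, adjusted p = 0.0183, not called without replicate 2 or without replicate 4; median -0.44) and 0 of 11 myeloid transcription factors was called (median -0.50).

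**Figure D4:**
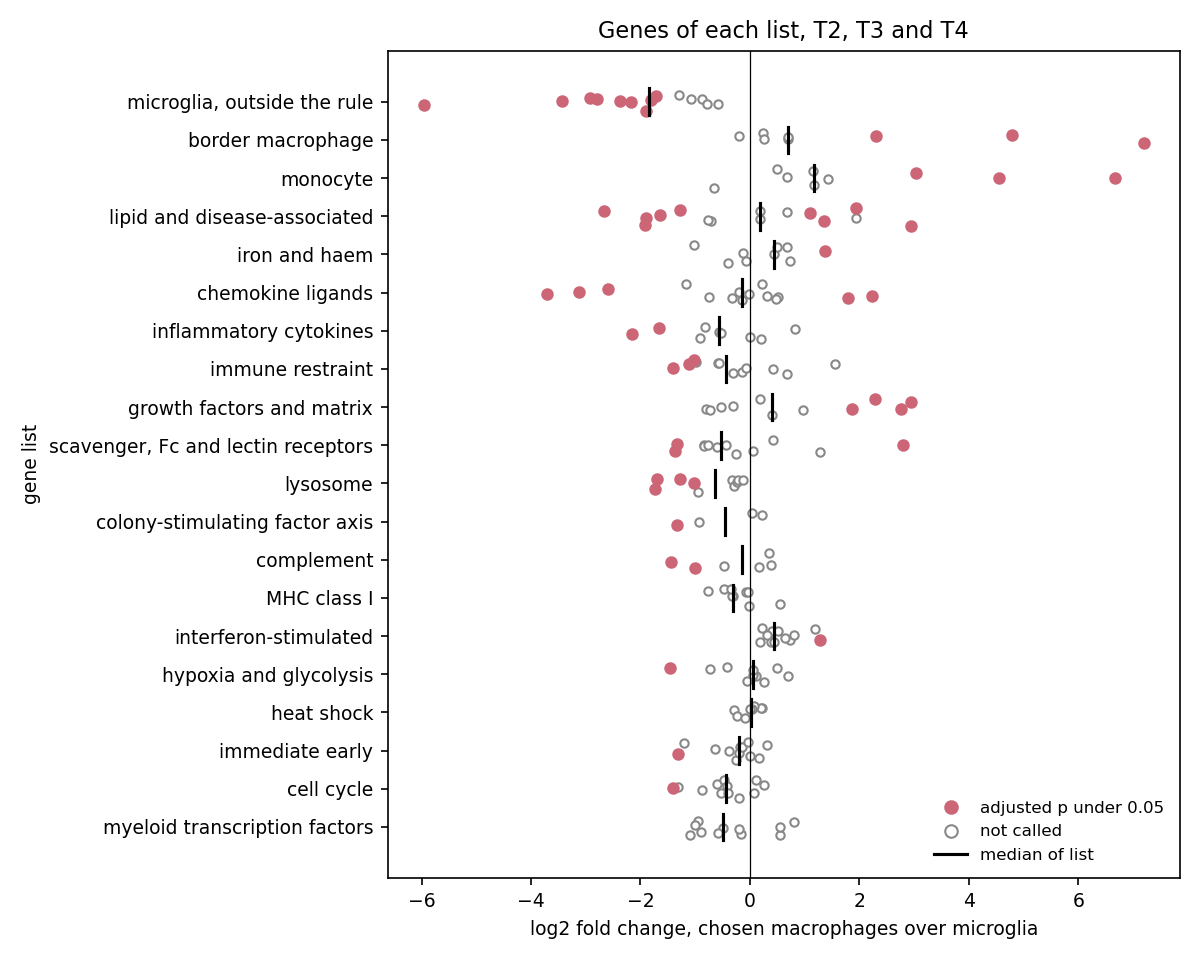
Log2 fold change of each tested list gene in the chosen macrophages over microglia of the same tumors (tumor replicates 2, 3 and 4), by list; filled points have an adjusted p under 0.05 and bars are list medians. Filled points lie to the left in the microglial list (9 of 14) and the lysosomal list (4 of 10) and to the right in the border macrophage list (3 of 8) and the growth factor and matrix list (4 of 11).

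Transcripts of other cell types were present in both classes. No gene of the neuron, oligodendrocyte, astrocyte or neural tumor lists was called (0 of 7, 4, 5 and 6 tested, with medians of 0.46, -0.48, 0.35 and -0.03), and no T and NK cell, B cell or dendritic cell gene had enough counts to be tested. Summed over each list, the chosen macrophages of tumor replicates 1 to 5 held 387, 1852, 275, 4459 and 1055 CPM of neural tumor genes, 1317, 1019, 405, 212 and 285 CPM of neuron genes and 0, 4.26, 0, 5.02 and 0 CPM of T and NK cell genes. Oligodendrocyte genes summed to 1627, 471, 2213, 276 and 884 CPM, astrocyte genes to 1317, 792, 231, 894 and 2452 CPM and endothelial genes to 77.5, 277, 260.3, 196 and 3193 CPM. B cell genes reached at most 5.02 CPM and dendritic cell genes 77.5 CPM, on 1 UMI in replicate 1. Neutrophil genes summed to 0, 155, 28.9, 2.51 and 0 CPM, with Ly6g at 0, and erythroid genes to 0, 65.3, 2936, 18.8 and 19215 CPM. The neural tumor genes were highest where they were highest in microglia (133, 2129.9, 228, 3663 and 901 CPM) and in non-phagocytes (844, 5744, 1568, 8308 and 2843 CPM). Endothelial Cldn5, a tight junction protein, was called higher (1.44 ± 0.29, adjusted p = 0.0128), at 129, 14.5 and 134 CPM against 32.4, 21 and 58.7 in microglia and 3299, 3512 and 4776 in endothelial cells, and lost the call without replicate 2 (0.83) or 4. All 5 endothelial genes tested had folds above 0 (median 1.21), with Pecam1 at 1.44 ± 0.44, adjusted p = 0.134 and Flt1 at 1.21 ± 0.34, adjusted p = 0.0959 (neither called), and the 2 neutrophil genes tested had a median of 2.31. S100a8, a neutrophil gene, was called higher (2.75 ± 0.54, adjusted p = 0.0103) on 61, 1 and 1 UMIs, of which 1 cell of replicate 2 held 24. It was not called without that tumor (0.68) and turned to -1.03, not called, with 1 microglial gene for microglia. The hemoglobin gene Hba-a2 was lower (7.1, 434 and 0 against 5.08, 2595 and 10.6 CPM, -2.38 ± 0.52, adjusted p = 0.0197), and its level in non-phagocytes was 821, 38730.4 and 18.8 CPM. The fold of Hba-a2 was -3.05 without replicate 2 and 0.18, not called, in tumors with at least 10 cells of each class. Without replicate 3 it had too few counts to be tested. The part of these transcripts in the other calls was not tested.

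Next to the chosen macrophages stand phagocytes with 3 or more macrophage genes and at least 1 microglial UMI (388, 38 and 599 cells in tumor replicates 2, 3 and 4). This comparison was added after seeing the data, and it asks how far the limit of 0 microglial UMIs divides cells that are otherwise alike by the rule. Of 7811 genes tested, 7 were called by edgeR (0.0896%), 1 higher (0.0128%) and 6 lower (0.0768%) in the chosen macrophages, and 819 had an unadjusted p under 0.05. The call that was higher was Chil3, with 72 against 1 UMIs (ratio 249, 95% counting interval 43.4 to 9989), from the few cells named above. Those that were lower were Crybb1 (-1.94 ± 0.30, adjusted p = 0.0316), Cst7 (-1.73 ± 0.25, adjusted p = 0.0256), Ccl3 (-1.84 ± 0.29, adjusted p = 0.0316), Apoe (-0.32 ± 0.04, adjusted p = 0.013) and the hemoglobin genes Hba-a2 (-4.12 ± 0.28, adjusted p = 2.43e-05) and Hbb-bt. Without replicate 2, Crybb1, Cst7, Ccl3 and Apoe were not called, nor were Cst7 and Apoe without replicate 4. In Apoe the levels were 52637, 46006 and 75674 CPM against 66933, 46416 and 90051 CPM. Of 13 microglial genes outside the rule tested, 1 (Crybb1) was lower and none higher, with a median of -0.99 against 0.0028 for all genes. The median was -0.23 for 9 border macrophage genes, of which none was called.

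The number of calls in that comparison rested on which tumors were in the fit. Without tumor replicate 3, whose 24 chosen macrophages had a median of 1297.5 UMIs against 8334.5 in the 38 cells with a microglial UMI, 469 genes were called (196 higher, 273 lower), and without replicate 2 only 1. In replicate 2 the medians were 1774 against 4707 UMIs, and in replicate 4 they were 3663 against 4287. The part of this gap in depth in the difference of microglial UMIs was not tested. For the microglial genes Cx3cr1 and Gpr34 the cells with a microglial UMI lay between the other classes: Cx3cr1 was at 173, 521 and 214 CPM in the chosen macrophages, 389, 1570 and 337 in cells with both and 797, 2049.7 and 484 in microglia, and Gpr34 at 48.3, 101 and 75.2 CPM in the chosen macrophages, 78.5, 830.1 and 116 in cells with both and 208, 1136 and 209 in microglia. For Lgals1 the 2 macrophage classes were close in replicates 2 and 4, at 410.2 and 258 CPM in the chosen macrophages and 419 and 257 CPM in cells with both.

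**Figure D5:**
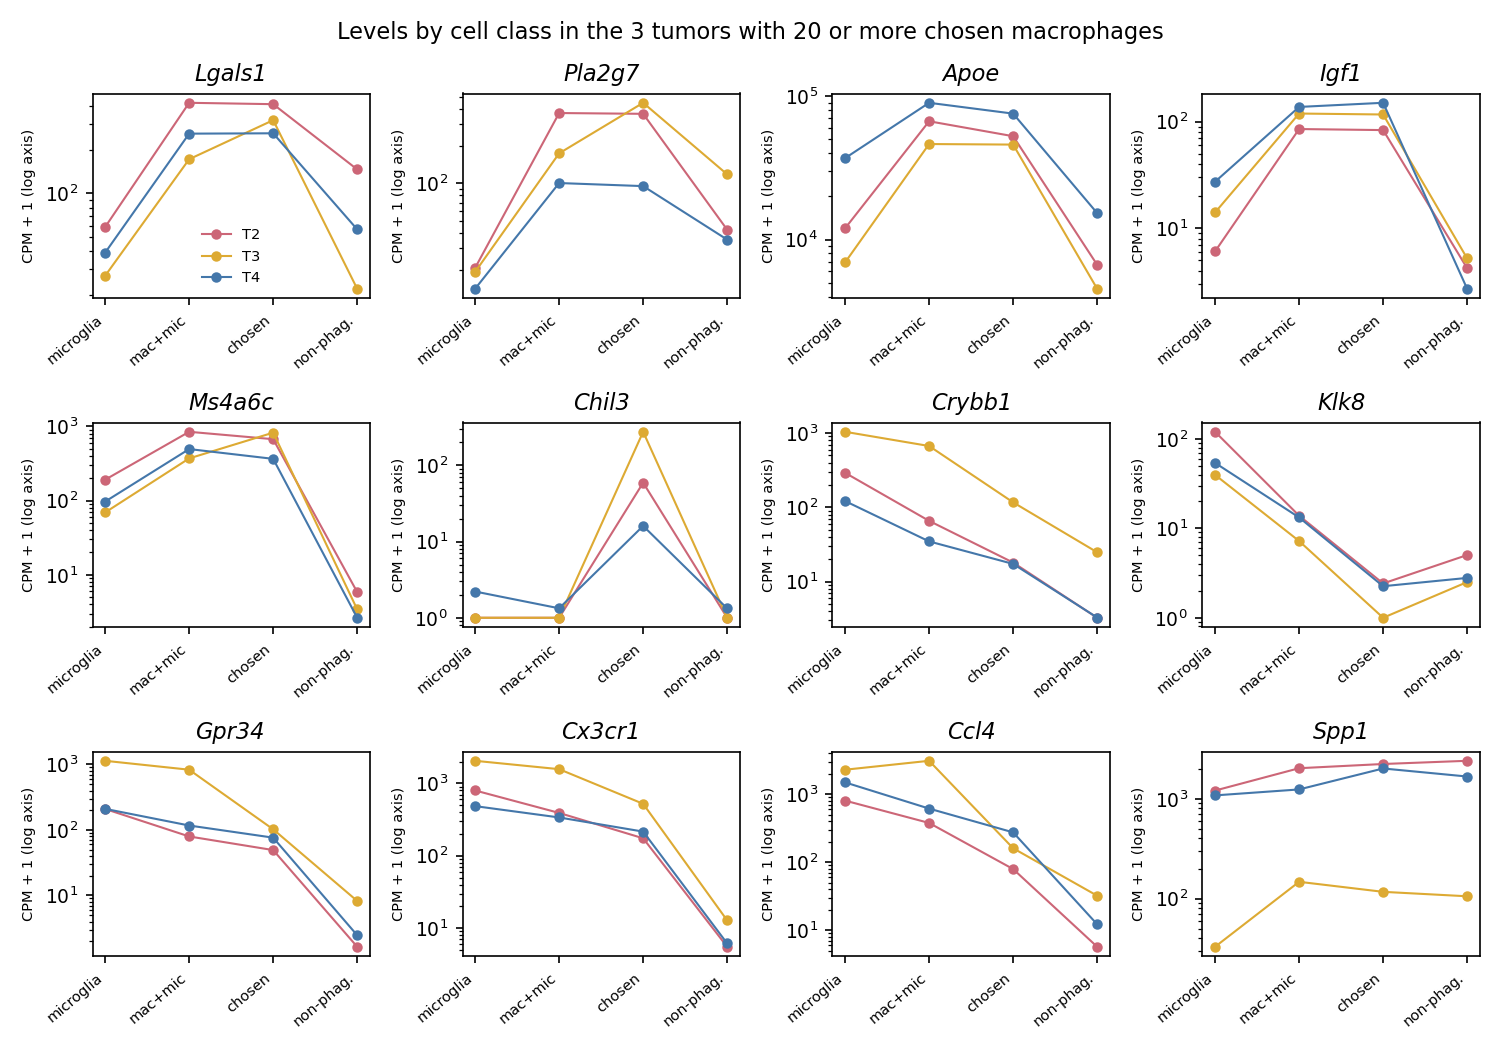
Levels of 12 genes, as CPM + 1 on log axes, in microglia, phagocytes with both macrophage genes and a microglial UMI (mac+mic), the chosen macrophages and non-phagocytes of tumor replicates 2, 3 and 4, each point 1 tumor. Lgals1, Pla2g7, Apoe and Igf1 are higher in both macrophage classes than in microglia, Gpr34 and Cx3cr1 step down from microglia over the mixed class to the chosen macrophages, and Spp1 is as high in non-phagocytes of T2 and T4 (2403 and 1671 CPM) as in the chosen macrophages (2231 and 2013 CPM).

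Macrophages past the MHC class II limit were too few for a test. They numbered 39 in tumor replicate 4, 4 and 3 in replicates 2 and 3, 0 in replicates 1 and 5, and 2, 2, 4 and 3 in the controls. In replicate 4 alone, with no replicate, they held 8563 CPM of Cd74, the invariant chain, against 164 CPM in the chosen macrophages, which the rule set. Outside the rule, Il1b was at 881 CPM against 390, Hmox1, the heme oxygenase, at 469 against 207, Lgals3 at 591 against 272 and Tgfbi at 220.2 against 37.6, each higher in the cells with MHC class II. Luciferase, at 40.6 against 135 CPM, and Sparc, at 69.5 against 194 CPM, were lower in them. Apoe (61824 against 75674 CPM) and Cx3cr1 (214 against 214 CPM) were close.

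The 13 chosen macrophages of control brain could not be tested against those of tumors, since no control held 20. Summed, they carried 23049 CPM of Apoe, 930.5 CPM of Pf4, 1249 CPM of Mrc1 and 798 CPM of the scavenger receptor Stab1. The phagocyte genes of the rule summed to 7481 to 12032 CPM in the 4 controls and to 10805 to 27974 CPM in the 5 tumors. Neuron genes summed to 6673 CPM in these 13 cells, 6264 CPM in microglia of controls and 18888 CPM in non-phagocytes of controls, and the part of that background in the phagocyte gene levels was not tested. Of the macrophage genes outside the rule that were called against microglia, Lgals1 had 4 UMIs in the 13 cells, Pla2g7 12, Igf1 4 and F13a1 17, and Clec12a and Chil3 had 0. All controls summed held 37616 UMIs in these cells, so that a count of 0 allows up to 79.8 CPM.

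Between the 3 tumors with most chosen macrophages, the genes that differed most by level were largely shared with other cells of the same tumor. In replicate 2, Mgp was at 265 CPM in the chosen macrophages, 68.5 in microglia and 326 in non-phagocytes, and the vessel genes Col4a1 and Igfbp7 were likewise highest in non-phagocytes (439.7 and 1124 CPM, against 241 and 679 CPM). The other genes named there were AY036118 and Ctla2a. In replicate 4, Dlk1, Nnat, Tnnt3 and Cldn10 were higher in non-phagocytes than in the chosen macrophages, with the Notch ligand-like Dlk1 at 4112 against 2172 CPM. The stress factor Atf3 was not, at 772 CPM in the chosen macrophages, 544 in microglia and 108 in non-phagocytes. In replicate 3, the heat shock genes Hspa1a and Hspa1b were at 2068 and 2039 CPM in the chosen macrophages and 2021 and 2230.4 CPM in microglia, and 1 cell held 87 of the 143 Hspa1a UMIs. Hemoglobin Hbb-bs there was at 2083 CPM, against 115156 CPM in non-phagocytes. Xist, the RNA of the inactive X chromosome, was found in replicate 3 in all classes and not in the chosen macrophages of the other 2. Plac8 was the exception among the 5 genes of replicate 3, with 1128 CPM in the chosen macrophages, 8.53 in microglia and 0.905 in non-phagocytes.

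The smallest sets were set by single cells. In tumor replicate 5, 1 of 10 chosen macrophages held all 499 Hbb-bs UMIs, all 124 Ccl5 UMIs belonged to 1 cell, as did all 95 Ccl4 UMIs, and 50 of the 57 Cldn5 UMIs were in 1 cell. The CPM of these genes in that tumor, 14226 for Hbb-bs, 3535 for Ccl5, 2708 for Ccl4 and 1625 for Cldn5, thus rest on 1 cell each. In tumor replicate 1, the attractant Ccl8 was at 1549.8 CPM, on 20 UMIs of which 17 were in 1 of 6 cells.

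The fusion transcript was rare in all 3 classes compared for it. Among the 4 sequences added to the reference, ZFTA-RELA_Fusion_1 had 4 and 11 UMIs in the chosen macrophages of tumor replicates 2 and 4, the latter in 11 different cells, and 0 in the other 7 libraries. Its level was 5.68 and 13.8 CPM there, 6.34 and 10.3 CPM in microglia and 13.2 and 17.9 CPM in non-phagocytes. Luciferase (Luc) had 27, 0, 108 and 2 UMIs in replicates 2 to 5, which is 38.3, 0, 135 and 57 CPM, against 85.7, 19.9, 279 and 72.8 CPM in non-phagocytes. The IRES sequence had 6 and 15 UMIs in replicates 2 and 4, and the reporter listed as mCherrytd_Tom had 0 in every chosen macrophage.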

How the data were processed

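The authors made 5' single-cell libraries of choroid-free tumor or brain tissue, aligned them to mm10 with 4 added sequences and deposited 1 matrix of UMI counts per library (Cell Ranger; the submitters' processing notes name version 7, the file headers another). The deposited counts are whole UMIs per gene and barcode with no normalization. The submitters' processing notes also name Scanpy 1.8.2. Here the 10000 barcodes with most UMIs per matrix were kept at 200 to 6000 genes and under 15% mitochondrial UMIs. No doublet caller was used in the main values. For control replicate 4 the gene and barcode lists were shorter than the matrix, so its rows were read by number and its barcode sequences were not used.

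UMIs were summed per mouse and class, and CPM are UMIs of a gene per 1000000 UMIs of all genes in those cells. Classes were compared in tumors with at least 20 cells of each by the edgeR 4.0.16 quasi-likelihood test (R 4.3.3; TMM, filterByExpr, mouse as a block since both classes come from the same animals, Benjamini-Hochberg adjustment over all genes tested, threshold 0.05), without the 22 genes of the rule. Every adjusted p for a gene is from that test. Shares were compared over mice by two-sided exact permutation tests (SciPy 1.17.1). Intervals are exact at 95%, and a count of 0 allows up to 3 counts; both cover counting error only. The test was tried on simulated data before use. Alternatives were DESeq2 1.42.0, limma 3.58.1 voom and other thresholds. Values that use the comparison with cells carrying a microglial UMI, the 10% mitochondrial limit in gene tests and Spp1 left out were added after seeing the data.

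Members, rule and gene lists were chosen with earlier results of these data known. Of 323 list genes, 4 had no single match and were not used, and a few others are not reported here. The text names list genes with the smallest p, up to 10 genes in each direction per comparison that kept their direction with each tumor left out (clone-like, mitochondrial and ribosomal protein symbols aside), and 5 genes per tumor with the largest ratio to the other tumors, among genes at 200 CPM or more with 50 CPM added. Genes given as not called, genes sparse in these cells and genes set by single cells were chosen after their values were seen.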

Additional observations from a re-analysis of the deposited data

Results flagged for a closer look

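Summed levels of gene lists in the chosen macrophages of the 5 tumors were screened for a tumor that stood apart from the rest, by the gap to its nearest neighbor over the whole range. Of 41 sets of values screened 4 passed, all of them list sums, and chance passes about 1 in 20. The heat shock list summed to 7492 CPM in tumor replicate 3, with the nearest tumor at 2203 CPM, and 4 cells held the Hspa1a UMIs there. The endothelial list summed to 3193 CPM in tumor replicate 5, with the nearest at 277 CPM. The erythroid list summed to 19215 CPM in the same tumor, with the nearest at 2936 CPM. The neutrophil list summed to 155 CPM in tumor replicate 2, with the nearest at 28.9 CPM.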

How the results depend on the processing

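The difference in the share of kept barcodes kept its direction under all alternatives run. It was 0.535 percentage points with 4 macrophage genes (exact permutation p = 0.0794), 0.289 with 8 microglial genes barred (p = 0.0476, 4 of 5 tumors above all controls) and 1.65 with replicate numbers as a block (p = 0.125, the smallest that 16 sign patterns allow), and 0.570 to 1.65 with 1 mouse left out (p = 0.0286 to 0.0357). As a share of phagocytes it missed the threshold with 4 macrophage genes (1.09, p = 0.460), 8 microglial genes barred (0.681, p = 0.143), no MHC class II limit (3.02, p = 0.429), Spp1 not counted (1.54, p = 0.143), a mitochondrial limit of 10% (2.92, p = 0.0794), doublets removed (3.20, p = 0.0794), 20000 barcodes (3.12, p = 0.0794), thinning before the rule (4.25, p = 0.175) and the replicate block (4.10, p = 0.125), and ran from 1.37 to 4.10 with 1 mouse left out (exact permutation p = 0.0286 to 0.107). The replicate block leaves out tumor replicate 5, which has no control of its number, and its differences equal those without that tumor, so the block moved the p and not the value. The labels do not say that replicate numbers pair control and tumor mice.

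Against microglia, 216 genes were called (79 higher, 137 lower). DESeq2 called 132 (66 and 66), no filter on low counts 417 (208 and 209), tumors with at least 10 cells 342 (141 and 201), and at least 50 cells 520 (202 and 318), the same fit as without tumor replicate 3. Without replicate 2 there were 157 (76 and 81) and without replicate 4 204 (100 and 104). With 4 macrophage genes 297 were called (177 and 120), with 8 microglial genes barred 284 (54 and 230) and with 1 microglial gene for microglia 146 (111 and 35). With no replicate block edgeR called 0, although 453 had an unadjusted p under 0.05, where limma voom with the block called 187 and DESeq2 132. With Spp1 not counted there were 211 (116 and 95). Of 66 named genes over these settings, 822 values kept direction and call, 184 kept direction only, and 3 turned: S100a8 was at -1.03 with 1 microglial gene for microglia, Plin2 at -0.075 with 8 microglial genes barred and Hba-a2 at 0.18 with at least 10 cells.

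Against cells with a microglial UMI, 7 genes were called. The count was 4 with DESeq2 (2 and 2), 40 with limma voom (9 and 31), 160 with no filter (37 and 123), 131 after thinning (55 and 76), 4 with doublets removed (2 and 2) and 2 at the 10% mitochondrial limit (0 and 2). It was 0 with no replicate block (115 at an unadjusted p under 0.05 in edgeR). With 1 tumor left out it ran from 1 to 469 (0 to 196 higher, 1 to 273 lower). Fits without a tumor held fewer samples, and the cause of these changes was not tested. Planned tests against MHC class II-high macrophages and between tumor and control cells were not run, since only 1 tumor and no control had 20 cells of each.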
